A study of Mus musculus with 20 samples.

Results

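Cxcl1, Cxcl2, Cxcl3 and Cxcl5 encode CXC chemokines that attract neutrophils, and these 4 were followed here in mouse bone marrow-derived macrophages (BMDMs). The members were taken by gene symbol from the table of read counts, 4 of its 21963 gene entries, and compared over all 5 groups of libraries. Of the 4 members, 3 passed the filter on low counts and were tested, among 11707 genes. Cxcl5 did not pass, with 0 to 2 reads in each library.

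RNA was sequenced from BMDMs of WT mice left untreated (n = 4), given zymosan (n = 5), or loaded with BAPTA-AM and given zymosan (n = 4), and from BMDMs of Mcu-/- mice left untreated (n = 4) or given zymosan (n = 3). Zymosan, particles of yeast cell wall that macrophages sense and engulf, was left on for 3 h. BAPTA-AM is a cell-permeable chelator of Ca2+. For expression assays of these cells the methods give 2 particles of zymosan per cell and 10 µM BAPTA-AM, and doses for the sequenced samples are not stated separately. Mcu encodes the pore subunit of the mitochondrial Ca2+ uniporter, and the study deleted it in mice with a floxed allele and the Cx3cr1-cre transgene, whose promoter is active in the monocyte and macrophage lineage. Mice of both genotypes were 15 to 25 weeks old. Whether WT mice carried the Cre transgene is not given in the sources used here, and the design holds no Mcu-/- group with BAPTA-AM and no BAPTA-AM group without zymosan.

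The CXC chemokines with a Glu-Leu-Arg motif bind Cxcr2 on neutrophils and, with proteoglycans on the vessel wall, guide these cells out of the blood. Macrophages make them within hours of sensing microbial products, as NF-kB enters the nucleus and binds near the gene starts. The mRNAs carry AU-rich elements and are short-lived, and proteins such as the product of Zfp36 speed their decay. In mice Cxcl1 is also called KC, Cxcl2 is MIP-2 and Cxcl5 is LIX.

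All 4 genes lie on the plus strand of chromosome 5 of mm10 in GENCODE M21. Cxcl5 (ENSMUSG00000029371) spans 90759360 to 90761624, Cxcl3 (ENSMUSG00000029379) 90786103 to 90789600, Cxcl1 (ENSMUSG00000029380) 90891241 to 90893115 and Cxcl2 (ENSMUSG00000058427) 90903871 to 90905938. Cxcl1 and Cxcl2 start 12.6 kb apart, and Cxcl3 and Cxcl1 start 105.1 kb apart. Of the distinct 50-base windows in the coding transcripts of Cxcl3, 6.31% also occur in Cxcl2, and Cxcl1 and Cxcl5 share no such window with another member. Reads within the shared stretch of Cxcl2 and Cxcl3 could have been lost or placed on either gene.

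The promoters of Cxcl1, Cxcl2 and Cxcl3 are shown because these genes moved together in most comparisons. With zymosan in WT BMDMs they rose by more than the tested genes that lie between or beside them. The promoter sequences come from RefSeq on GRCm38.p6, the mm10 assembly, run from 250 bases before to 50 bases after the RefSeq start on the plus strand, and match 3 of the 4 members. The capitals mark GGGAATTTC, a form of the NF-kB binding sequence, and ATAAAAG, which resembles the TATA box.
Cxcl1, chr5:90890995-90891294: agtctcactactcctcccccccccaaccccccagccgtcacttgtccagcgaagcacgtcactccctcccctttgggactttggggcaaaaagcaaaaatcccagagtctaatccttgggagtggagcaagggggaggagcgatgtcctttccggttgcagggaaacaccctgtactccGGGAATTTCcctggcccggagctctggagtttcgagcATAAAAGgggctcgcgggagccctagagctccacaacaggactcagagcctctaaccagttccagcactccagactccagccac
Cxcl2, chr5:90903649-90903948: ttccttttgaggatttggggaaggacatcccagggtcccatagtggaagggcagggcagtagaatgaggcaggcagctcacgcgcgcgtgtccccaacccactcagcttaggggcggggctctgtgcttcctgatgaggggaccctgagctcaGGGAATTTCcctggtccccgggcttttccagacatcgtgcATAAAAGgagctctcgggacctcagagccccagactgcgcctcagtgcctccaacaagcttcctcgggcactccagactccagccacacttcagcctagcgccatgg
Cxcl3, chr5:90785851-90786150: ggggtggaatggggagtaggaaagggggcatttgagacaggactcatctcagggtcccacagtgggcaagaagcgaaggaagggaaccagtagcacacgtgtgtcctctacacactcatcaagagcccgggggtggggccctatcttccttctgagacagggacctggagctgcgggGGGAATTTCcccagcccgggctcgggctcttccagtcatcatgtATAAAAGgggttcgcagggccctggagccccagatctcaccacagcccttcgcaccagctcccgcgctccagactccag

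GGGAATTTC occurred once in each of the 3 promoters, at -71 in Cxcl1, -97 in Cxcl2 and -73 in Cxcl3, counted from the RefSeq start to the first base of the motif. On either strand it was present in 0.259% of 32851 promoters of this length. ATAAAAG followed it by 37, 40 and 44 bases in Cxcl1, Cxcl2 and Cxcl3, and was present in 5.42% of all promoters. Both sequences were picked after these 3 promoters had been read, so that their presence here is a description. GGGNNTTCC, TGANTCA (AP-1) and TTGCNNAA (C/EBP), searched on both strands, did not occur in the 3 windows and were present in 5.82%, 7.81% and 10.8% of all promoters. GGGNNTTCC is another form of the NF-kB sequence, and no stretch of bases can match both forms in full.

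Total counts ran from 14420402 to 23954552 per library, and levels are given as counts-per-million (CPM) values after TMM scaling, with the SD over libraries. Mcu reads, counted over the whole gene, had 6.10 to 9.55 CPM in the 13 WT libraries and 2.63 to 4.05 CPM in the 7 Mcu-/- libraries, with no overlap (adjusted p = 9.61e-05 with zymosan and 0.000163 without, edgeR). Untreated Mcu-/- replicate 4 stood apart from replicates 1 to 3. A chi-square statistic per gene, near 1 for sampling noise alone, averaged 217 to 225 for the pairs with this library and 1.60 to 6.53 for the 28 other pairs within a group. In several macrophage genes it resembled the 3 Mcu-/- zymosan libraries. Lyz2 was at 2823 CPM in it, at 3217 to 3280 CPM with zymosan and at 7824 to 8390 CPM in replicates 1 to 3, and Cd68 was at 971 CPM, at 1142 to 1175 CPM and at 251 to 259 CPM. No Mcu-/- zymosan library resembled replicates 1 to 3 in these genes, so the genotype and whatever sets these 4 libraries apart cannot be told apart under zymosan. The column names number the Mcu-/- zymosan libraries 3, 4 and 5, and they are named so here. The labels call the samples biological replicates, with nothing on whether they came from separate mice, so p-values measure the spread between these samples. In edgeR this spread was estimated over all 5 groups together, so a library outside a comparison also enters its p-values. The biological coefficient of variation, the fitted spread between replicates, was 12.4% over all libraries and 3.56% without untreated Mcu-/- replicate 4.

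Untreated WT BMDMs held almost no mRNA of these chemokines. Cxcl2 was at 0.938, 1.40, 0.813 and 0.954 CPM in the 4 libraries, from 17 to 33 reads each. Cxcl1 had 2, 2, 1 and 2 reads, and Cxcl3 had 0, 1, 0 and 2 reads. Cxcl5 had 0 reads in all 4 libraries, where 3 reads, the limit that a count of 0 allows, correspond to 0.127 to 0.168 CPM. Such limits and the intervals on count ratios below cover counting error alone.

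With zymosan all 3 tested members rose in WT BMDMs, and none of their libraries overlapped with untreated ones. This was 3 of 3 tested members called higher, against 32.4% of all genes tested in this comparison. Cxcl2 reached 248, 258, 261, 242 and 249 CPM, the highest level of the 3 and a narrow range. Its log2 fold change was 7.92 (SE 0.13, adjusted p = 1.18e-19 by edgeR). Cxcl1 reached 11.4, 11.99, 12.04, 10.2 and 9.87 CPM. From the summed reads this was 140 times the untreated level (95% counting interval 67.9 to 350, adjusted p = 1.56e-14 by edgeR). Cxcl3 reached 3.59, 3.62, 3.77, 4.00 and 2.99 CPM, 106 times the untreated level (95% counting interval 35.9 to 516, adjusted p = 2.56e-12 by edgeR). The ratios of Cxcl1 and Cxcl3 rest on 7 and 3 reads in the 4 untreated libraries together. Cxcl5 had 2 reads in 1 of the 5 zymosan libraries and 0 in the others. In bulk RNA, fewer expressing cells and less mRNA per cell cannot be told apart.

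**Figure D1:**
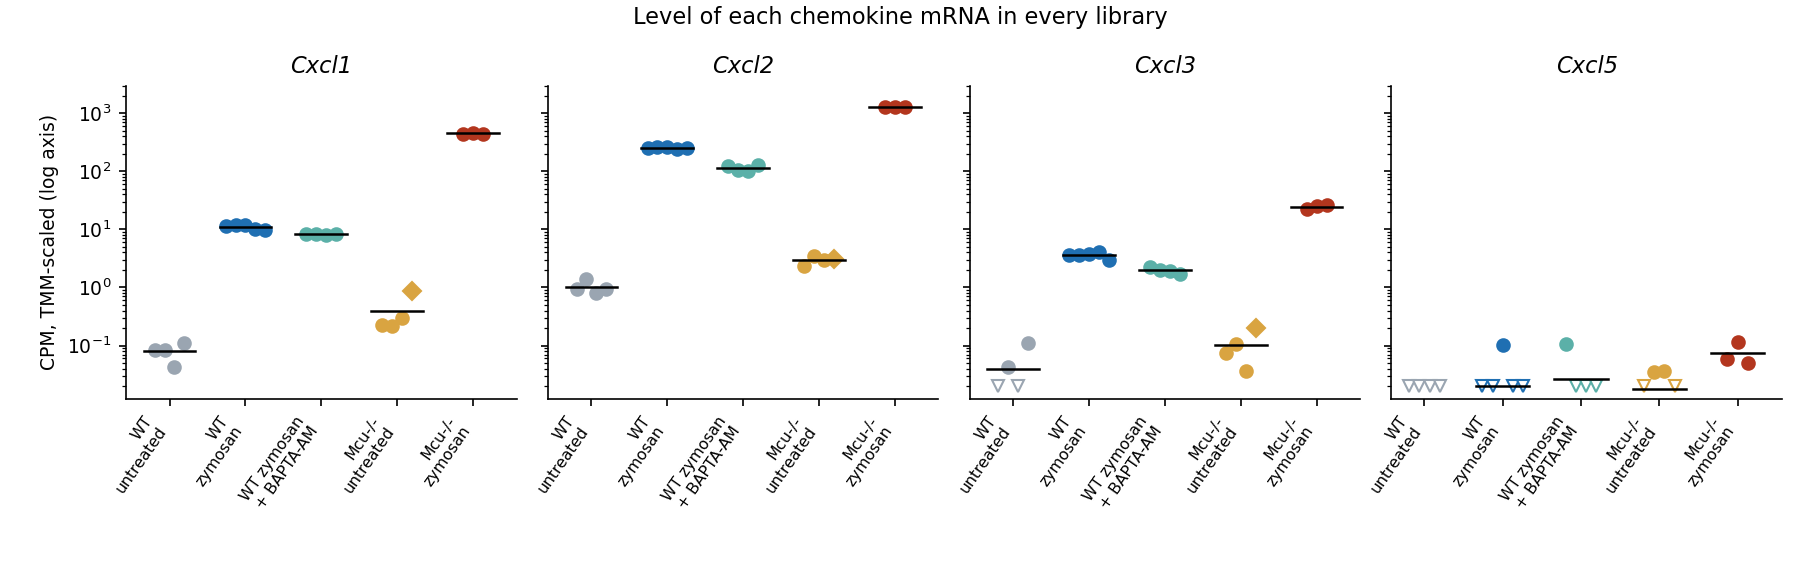
Level of Cxcl1, Cxcl2, Cxcl3 and Cxcl5 in each of the 20 libraries by group, as TMM-scaled CPM on a log axis, with lines for group means, diamonds for untreated Mcu-/- replicate 4 and open triangles, drawn at 0.02, for libraries with 0 reads. For Cxcl1, Cxcl2 and Cxcl3 the Mcu-/- zymosan libraries lie above all other groups.

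All 3 tested members were lower in BAPTA-AM-loaded than in unloaded WT BMDMs given zymosan, Cxcl2 by the most and Cxcl1 by the least. This was 3 of 3 tested members called lower, against 6.33% of all genes tested. Cxcl2 fell to 124, 103, 102 and 127 CPM, with no overlap with the unloaded libraries and a log2 fold change of -1.14 (SE 0.09, adjusted p = 1.01e-07 by edgeR). Cxcl3 fell to 2.24, 2.02, 1.91 and 1.72 CPM, again without overlap, with a log2 fold change of -0.87 (SE 0.18, adjusted p = 0.00263 by edgeR). Cxcl1 was at 8.37, 8.19, 7.88 and 8.34 CPM, all below the lowest unloaded library at 9.87 CPM. Its log2 fold change was -0.44 (SE 0.13, adjusted p = 0.0258 by edgeR). The Cxcl1 call was lost when any 1 of the 4 BAPTA-AM libraries or WT zymosan replicate 1, 2 or 3 was left out, with adjusted p from 0.055 to 0.0689. It was kept, at adjusted p = 3.35e-06, without untreated Mcu-/- replicate 4, which takes no part in this comparison other than through the shared estimate of spread.

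Most of the induction of Cxcl1 was still present in BAPTA-AM-loaded BMDMs. Taking the rise from the untreated to the zymosan mean as 100%, 73.5% ± 2.05 (SD, n = 4) of the rise was left for Cxcl1, 54.3% ± 6.13 for Cxcl3 and 45.1% ± 5.27 for Cxcl2. The lowest library for Cxcl1 was at 70.7% and the highest for Cxcl2 at 50.2%. The ratio of Cxcl1 to Cxcl2 within a library is free of library scaling, apart from the pseudocount. Its log2 was -3.71 ± 0.14 with BAPTA-AM and -4.44 ± 0.10 without (exact two-sided permutation test, p = 0.00794, the smallest possible, adjusted p = 0.0216 over 30 tests). BAPTA-AM-loaded libraries remained far above untreated WT ones, with 3 of 3 tested members called higher against 31.9% of all genes. Cxcl2 had a log2 fold change of 6.78 (SE 0.13, adjusted p = 1.12e-18 by edgeR) against untreated WT. Cxcl5 had 2 reads in 1 loaded library and 0 in the others.

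The highest levels of Cxcl1, Cxcl2 and Cxcl3 were in Mcu-/- BMDMs given zymosan. In the comparison with zymosan-treated WT BMDMs 3 of 3 tested members were called higher, against 31.8% of all genes tested. Cxcl1 was at 447, 456 and 442 CPM in columns 3, 4 and 5, where WT libraries had at most 12.04 CPM. Its log2 fold change was 5.33 (SE 0.12, adjusted p = 4e-16 by edgeR), about 40.3 times the WT mean, and ranked 4 among the 11707 genes from the top. Cxcl2 was at 1256, 1297 and 1263 CPM, 5.05 times the WT mean, with a log2 fold change of 2.34 (SE 0.09, adjusted p = 1.06e-12 by edgeR). Cxcl3 was at 22.3, 25.04 and 25.9 CPM, 6.79 times the WT mean, with a log2 fold change of 2.76 (SE 0.16, adjusted p = 1.58e-10 by edgeR). No library of either group overlapped for these genes. An exact permutation test of 3 against 5 libraries gave p = 0.0179, its smallest value, for each. Cxcl5 had 1, 2 and 1 reads in the Mcu-/- zymosan libraries, 3.39 times the WT zymosan level by summed reads (95% counting interval 0.486 to 37.5), so a difference was not detectable at this depth.

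The log2 ratio of Cxcl1 to Cxcl2 with zymosan was -1.504 ± 0.01 (n = 3) for Mcu-/- BMDMs and -4.44 ± 0.10 (n = 5) for WT BMDMs, a difference of 2.94 (exact two-sided permutation test, p = 0.0179, the smallest possible, adjusted p = 0.033 over 30 tests). Cxcl1 also gained on Cxcl3, by 2.67 on the log2 scale (exact permutation test, adjusted p = 0.033). For Cxcl2 to Cxcl3 the difference was -0.27 and did not pass (exact permutation test, adjusted p = 0.0765). Of the 30 ratio tests 26 passed, and 11 passed when any 1 of the 3 Mcu-/- zymosan libraries was left out. Leaving out a library of this group raises the smallest p the exact test can give, so this drop does not measure a change in the ratios. The ratio tests with Cxcl5 follow the other member because Cxcl5 sits at the pseudocount of 0.5 CPM.

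Per kilobase of exon in coding transcripts, Cxcl2 was the most abundant member in every group. With zymosan Cxcl2 made up 89.9% ± 0.61 of the summed level per length of the 4 genes in WT BMDMs and 58.1% ± 0.11 in Mcu-/- BMDMs. Cxcl1 made up 7.74% ± 0.49 and 39.9% ± 0.26, and Cxcl3 made up 2.35% ± 0.25 and 2.04% ± 0.15. In BAPTA-AM-loaded WT BMDMs Cxcl1 made up 12.04% ± 0.96. These shares depend on the length used for each gene, and by coding length Cxcl1 made up 26.5% in Mcu-/- and 4.35% in WT BMDMs with zymosan.

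**Figure D2:**
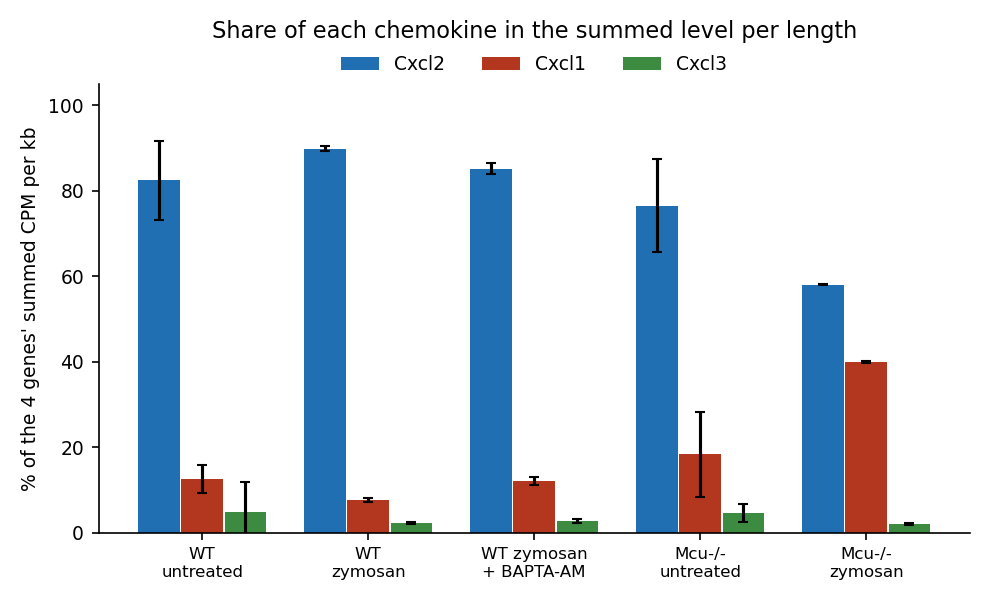
Share of Cxcl2, Cxcl1 and Cxcl3 in the summed level per length (CPM per kilobase of exon) of the 4 genes, as mean percent per group with the SD over 3 to 5 libraries. With zymosan Cxcl1 stands at 7.74% in WT and 39.9% in Mcu-/- BMDMs.

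Without zymosan, Cxcl2 was higher in Mcu-/- than in WT BMDMs, and Cxcl1 and Cxcl3 did not pass the test. In this comparison 1 of 3 tested members was called, against 0.35% of all genes called in either direction. Cxcl2 was at 2.37, 3.45, 2.92 and 3.13 CPM in Mcu-/- replicates 1 to 4, all above the highest WT library at 1.40 CPM. Its log2 fold change was 1.52 (SE 0.15, adjusted p = 2.37e-05 by edgeR). When edgeR was run on these 2 groups without the others, the fold change was unchanged and the adjusted p was 0.0979. Without replicate 4 the log2 fold change was 1.495 (SE 0.21, adjusted p = 7.88e-06 by edgeR), where 1.53% of all genes were called higher. Cxcl1 had 6, 6, 8 and 22 reads in the Mcu-/- libraries, at 0.222, 0.213, 0.292 and 0.873 CPM. By summed reads it was 4.91 times the WT level (95% counting interval 2.19 to 12.96), and the libraries did not overlap. Its log2 fold change of 2.22 (SE 0.51) missed the threshold, with an adjusted p of 0.073 by edgeR, and passed when Mcu-/- replicate 1 or 2 was left out. DESeq2's Wald test gave an adjusted p of 0.0176 for Cxcl1. Without replicate 4 the edgeR adjusted p was 0.112. Cxcl3 had 2, 3, 1 and 5 reads and overlapped with WT (log2 fold change 1.43, SE 0.66, adjusted p = 0.357 by edgeR), and Cxcl5 had 0, 1, 1 and 0 reads.

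Zymosan raised all 3 tested members in Mcu-/- BMDMs, against 34.3% of all genes called higher in this comparison. The level with zymosan was 1149 times the untreated level for Cxcl1 (95% counting interval 850 to 1595, adjusted p = 4.02e-19 by edgeR) and 428 times for Cxcl2 (384 to 480, adjusted p = 3.8e-20 by edgeR). For Cxcl3 it was 240 times (134 to 482, adjusted p = 2.15e-15 by edgeR). Against replicate 4 alone, the untreated library that resembled the zymosan ones, the mean level with zymosan was 513 times for Cxcl1, 406 times for Cxcl2 and 123 times for Cxcl3. Against the mean of replicates 1 to 3 it was 1848, 437 and 337 times.

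The responses of the genotypes were compared by an interaction term, in which 2 of 3 tested members were called, both higher in Mcu-/-, against 35.2% of all genes called in either direction. For Cxcl2 the log2 response was larger by 0.82 in Mcu-/- BMDMs (SE 0.18, adjusted p = 0.0027 by edgeR). With replicate 4 as the only untreated Mcu-/- library, a setting added after the data were seen, this was 0.74 with an adjusted p of 0.0507, and without replicate 4 it was 0.84 with an adjusted p of 0.00277. For Cxcl1 the difference was 3.11 (SE 0.80, adjusted p = 0.00643 by edgeR), a fitted value that depends on 1 or 2 reads in each untreated WT library. It was 3.79 (adjusted p = 1.7e-05 by edgeR) without replicate 4 and 1.97 (adjusted p = 0.0331 by edgeR) with replicate 4 as the only untreated Mcu-/- library. For Cxcl3 it was 1.33 (SE 0.97, adjusted p = 0.369 by edgeR).

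**Figure D3:**
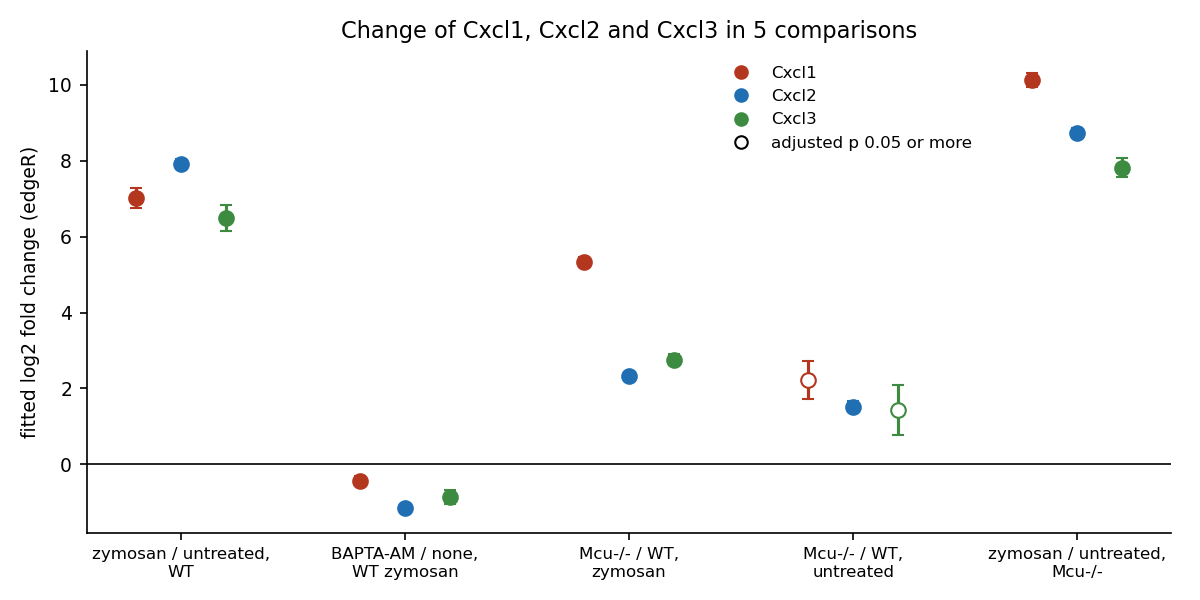
Fitted log2 fold changes of Cxcl1, Cxcl2 and Cxcl3 in 5 comparisons, with filled points for an adjusted p under 0.05 by edgeR. Bars show the SE, derived as the absolute log2 fold change over the square root of the edgeR F statistic. Of the 3 genes Cxcl1 has the largest change between Mcu-/- and WT with zymosan, at 5.33, and the smallest with BAPTA-AM, at -0.44.

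Ordered by mean level, each of the 3 tested members ran from Mcu-/- zymosan through WT zymosan, BAPTA-AM-loaded WT zymosan and Mcu-/- untreated to WT untreated. Neighbouring groups in this order had no overlapping libraries, except for Cxcl3 between the 2 untreated groups. The share of all genes tested with such an order or lack of overlap was not counted, so neither is a trait shown to be particular to the members. Across the 20 libraries the log2 CPM of Cxcl1, Cxcl2 and Cxcl3 had Pearson correlations of 0.960 to 0.986 with each other, a description in which all points share the libraries and their treatment.

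The genes whose pattern over the 20 libraries was most like Cxcl1 were Slc4a7, Sgms1, Fbxo40, Pik3ca and Kpna3, with Pearson r of 0.989 to 0.994. Those most like Cxcl2 were Lancl2, Ifnb1, Ccng2, Ccl2 and Chd1 (0.992 to 0.994), and those most like Cxcl3 were Pik3ca, Tmem171, Ccng2, Kpna3 and Ccl2 (0.9901 to 0.994). Ifnb1, which encodes interferon beta, was at 376 CPM in Mcu-/- and 103 CPM in WT BMDMs with zymosan, and at 45.6 CPM with BAPTA-AM. Ccl2, the monocyte chemokine, was at 1855, 793 and 680 CPM in the same order. The lists were not stable, and without untreated Mcu-/- replicate 4 only 1, 1 and 2 of the 5 stayed among the nearest 5 of Cxcl1, Cxcl2 and Cxcl3.

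Of 9 listed genes beside the members 4 had enough reads to be tested, and with zymosan in WT 3 of them were called higher, by less than the members, against 32.4% of all genes. With BAPTA-AM 1 of the 4 was called lower and 0 higher, against 6.33% and 6.43% of all genes. In Mcu-/- against WT with zymosan 2 were called higher and 1 lower, against 31.8% and 30.3% of all genes. Ppbp and Pf4, which encode platelet chemokines, lie between Cxcl5 and Cxcl3. Pf4 had 108 ± 6.59 CPM in WT BMDMs with zymosan and 90.2 ± 5.25 CPM without, a log2 fold change of 0.26 (SE 0.05, adjusted p = 0.000215 by edgeR). Ppbp did not pass in WT (log2 fold change 0.23, adjusted p = 0.477 by edgeR) and was lower in Mcu-/- than in WT with zymosan, with a log2 fold change of -2.19 (SE 0.37, adjusted p = 6.58e-05 by edgeR). It was also low in untreated Mcu-/- replicate 4, at 0.754 CPM against 2.60 to 4.02 CPM in replicates 1 to 3. Mthfd2l, a mitochondrial folate enzyme next to Cxcl2, had a log2 fold change of 0.32 with zymosan in WT (SE 0.13, adjusted p = 0.0282 by edgeR). Areg, which encodes an EGF receptor ligand, rose from 0 or 1 reads to 5 to 13 reads per WT library (adjusted p = 1.59e-06 by edgeR) and was higher in Mcu-/- with zymosan (log2 fold change 1.31, SE 0.32, adjusted p = 0.00184 by edgeR). Cxcl15, Rassf6, Epgn, Ereg and Btc had at most 10 reads in any library and were not tested.

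**Figure D4:**
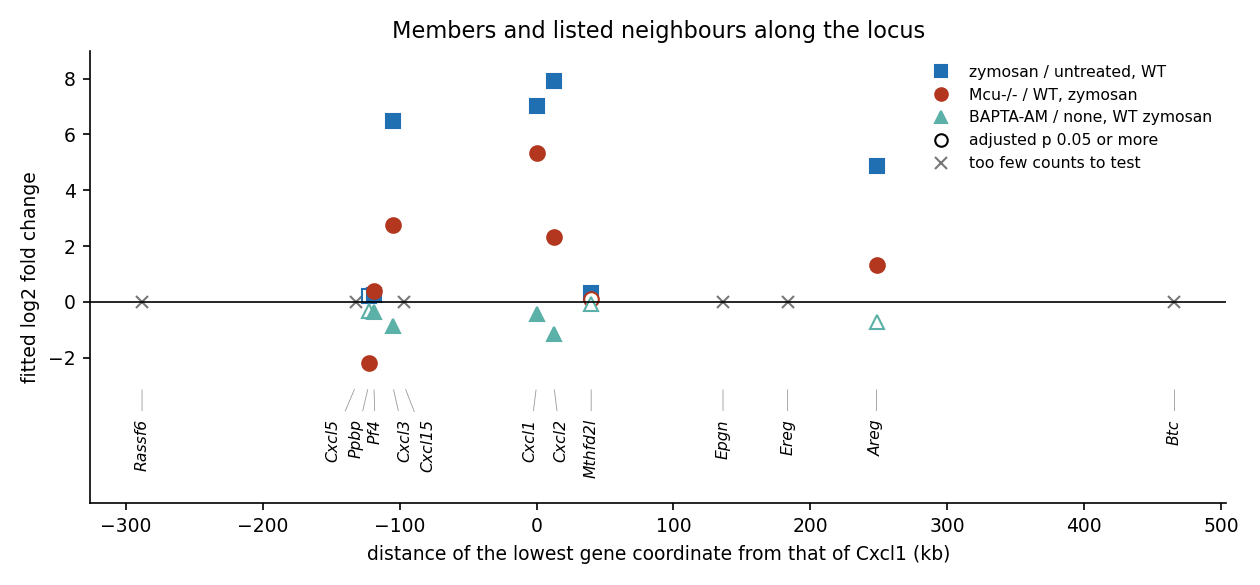
Fitted log2 fold changes of the members and the listed neighbouring genes against their distance from Cxcl1 in kb, for 3 comparisons, with filled points for an adjusted p under 0.05 and crosses at 0 for genes with too few reads to test. Cxcl1, Cxcl2 and Cxcl3 lie above 6 for zymosan in WT, while Ppbp and Pf4 lie at 0.23 and 0.26.

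Transcripts of the listed chemokine receptors and scavengers were almost absent, apart from Cxcr4. Cxcr2, the main receptor of the members on neutrophils, had 0 to 3 reads per library, Cxcr1 had 0 or 1, and Ackr1, a scavenger of chemokines, had 0 in all 20. Ackr2 and Ackr3, listed without regard to whether they bind the members, had at most 4 and 3 reads. Cxcr4, which binds Cxcl12, was at 12.8 ± 0.53 CPM with zymosan and 2.53 ± 0.32 CPM without in WT (adjusted p = 0.00121 by edgeR), and at 26.2 CPM in untreated Mcu-/- replicate 4 against 2.51 to 3.07 CPM in replicates 1 to 3.

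Of 15 tested products that recruit neutrophils 11 were called higher and 1 lower with zymosan in WT BMDMs, against 32.4% and 36.8% of all genes, with a median log2 fold change of 4.11 beside -0.04 over all genes. Il6 (10.07) and Il1a (8.32), which encode inflammatory cytokines, rose the most. Il6 was the 1 gene of this list called in untreated BMDMs, higher in Mcu-/- (log2 fold change 1.60, SE 0.28, adjusted p = 0.0124 by edgeR). With BAPTA-AM 4 of 15 were called lower and 0 higher, against 6.33% and 6.43% of all genes, with Il1a at -2.28 and Il1b at -1.67. In Mcu-/- against WT with zymosan 9 were called higher and 4 lower, against 31.8% and 30.3% of all genes, so the share that was lower was near that of all genes. Csf3, the granulocyte growth factor G-CSF, had a log2 fold change of 3.14 and Il1a of 2.13, while S100a9 had -3.40 and Alox5, the enzyme that starts leukotriene synthesis, -2.90. S100a9 and Alox5 were also low in untreated Mcu-/- replicate 4, at 0.0397 and 0.397 CPM against 0.998 to 1.35 and 1.92 to 2.48 CPM in replicates 1 to 3. Csf3 and Il1a had at most 3 and 6 reads in any untreated Mcu-/- library.

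Of the other CXC chemokines 3 of 5 tested were called higher and 1 lower with zymosan in WT, against 32.4% and 36.8% of all genes. Cxcl10 (10.22) and Cxcl9 (8.75), which attract T cells through Cxcr3, rose the most on the log2 scale, and Cxcl14 fell by 2.22. In Mcu-/- against WT with zymosan 4 were called higher, against 31.8% of all genes, with Cxcl14 at a log2 fold change of 4.79 and Cxcl12 at 1.84. Cxcl14 was at 86.7 CPM and Cxcl12 at 1.07 CPM in untreated Mcu-/- replicate 4 as well, against 7.82 to 9.28 and 0.0739 to 0.146 CPM in replicates 1 to 3. Cxcl10 passed in untreated BMDMs, higher in Mcu-/- with a log2 fold change of 1.38 (SE 0.10, adjusted p = 2.14e-07 by edgeR). With BAPTA-AM 1 of these 5 was called lower and 0 higher, against 6.33% and 6.43% of all genes. This was Cxcl9, at 12.01 ± 1.27 CPM with BAPTA-AM and 22.1 ± 2.31 CPM without (log2 fold change -0.88, SE 0.10, adjusted p = 1.09e-05 by edgeR).

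A list of NF-kB subunits, inhibitors and cofactors also held Cebpb, Cebpd, Hif1a and Egr1, which encode other transcription factors. Of its 16 genes 15 were called higher with zymosan in WT, against 32.4% of all genes. Tnfaip3 (5.94) and Nfkbie (5.54), both inhibitors of the NF-kB pathway, were the highest. In Mcu-/- against WT with zymosan 7 were called higher and 3 lower, against 31.8% and 30.3% of all genes, with a median log2 fold change of 0.21 beside 0.02 over all genes. Nfkbie (1.23) and Egr1 (0.74) were the largest rises, and Cebpd (-1.89) and Cebpb (-1.28) the largest falls. Cebpd was at 47.0 CPM in untreated Mcu-/- replicate 4 and 31.5 to 32.0 CPM in the Mcu-/- zymosan libraries, against 104 to 109 CPM in replicates 1 to 3. Cebpb, at 234 CPM in replicate 4, was far above both replicates 1 to 3 (120 to 124 CPM) and the Mcu-/- zymosan libraries (101 to 107 CPM). With BAPTA-AM 5 were called lower, against 6.33% of all genes, with Nfkbiz (-0.35), a cofactor known to be needed for a subset of NF-kB targets, and Bcl3 (-0.30) among the largest falls.

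Of 12 tested genes that control mRNA decay 8 were called higher and 4 lower with zymosan in WT, against 32.4% and 36.8% of all genes. Arid5a (5.28) and Zfp36 (3.08) rose the most, and Zfp36l2 (-1.91) and Zfp36l1 (-1.17) fell the most. In Mcu-/- against WT with zymosan 4 were called higher and 5 lower, shares near the 31.8% and 30.3% of all genes. Zc3h12a, which encodes the RNA-cleaving enzyme Regnase-1, had a log2 fold change of -0.74 and Tia1 of -0.65, while Zc3h12c had 1.30 and Rc3h1 0.38. In untreated Mcu-/- replicate 4 Tia1 was at 11.2 CPM against 19.5 to 21.97 CPM in replicates 1 to 3, Zc3h12c at 45.1 against 21.6 to 22.8 CPM and Rc3h1 at 52.3 against 39.1 to 41.0 CPM. These shifts were towards the Mcu-/- zymosan libraries, and zymosan in WT moved the same genes in the same directions. Zc3h12a, which zymosan raised in WT (log2 fold change 1.04), was at 93.6 CPM in replicate 4 against 99.1 to 111 CPM in replicates 1 to 3. Replicate 4 had 0.788 times the untreated WT mean of Zc3h12a, and the Mcu-/- zymosan libraries, at 145 to 147 CPM, had 0.599 times the WT zymosan mean. With BAPTA-AM Zc3h12c (0.50) and Zfp36l2 (0.20) were higher and Zfp36l1 (-0.81) and Mapkapk2 (-0.23) lower, 2 of 12 in each direction against 6.43% and 6.33% of all genes. Over the 6 lists the BAPTA-AM comparison had 13 genes called lower, and 31 without untreated Mcu-/- replicate 4.

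All 10 macrophage markers passed the filter, with sums of 9232 to 17113 CPM per library and Lyz2 the highest. Of 12 neutrophil markers 2 passed, and the sum of the 12 was 3.03 to 3.56 CPM in the Mcu-/- zymosan libraries, where the chemokines were highest, and 2.90 to 6.68 CPM over all libraries. Ly6g, which defines mouse neutrophils, had at most 1 read. The sum of 8 stromal markers, of which 5 passed, was 52.2 to 62.8 CPM in the Mcu-/- zymosan libraries, 32.5 CPM in untreated Mcu-/- replicate 4, 2.04 to 3.70 CPM in replicates 1 to 3 and 3.37 to 11.2 CPM in WT. Col1a1 and Col1a2, the collagen I genes of fibroblasts, were at 18.3 to 25.6 and 21.8 to 24.6 CPM with zymosan in Mcu-/-. The sum of 6 dendritic cell markers was 0.767 to 1.16 CPM in untreated WT libraries, 9.20 to 9.86 CPM with zymosan in WT, 5.68 to 7.37 CPM with BAPTA-AM, and 10.99 to 12.04 CPM in Mcu-/- with zymosan. Of these 6 markers 2 passed the filter, and Xcr1, a chemokine receptor, made up most of the sums with zymosan. Xcr1 was at 0.613 ± 0.15 CPM in untreated WT, 9.03 ± 0.39 CPM with zymosan, 6.15 ± 0.77 CPM with BAPTA-AM and 10.41 ± 0.47 CPM in Mcu-/- with zymosan. It was called higher with zymosan in WT (log2 fold change 3.85, adjusted p = 1.28e-13 by edgeR) and lower with BAPTA-AM (log2 fold change -0.55, adjusted p = 0.00608 by edgeR), while Zbtb46, the other marker tested, was called in neither. Sums of 7 lymphoid, 5 mast cell and basophil, and 7 epithelial and endothelial markers were 1.19 to 2.57, 0 to 0.191 and 27.4 to 57.3 CPM. Of the last list 6 were tested. In Mcu-/- against WT with zymosan 3 of them were called higher and 1 lower, against 31.8% and 30.3% of all genes. Pecam1, the highest of them, was at 15.4 ± 1.08 CPM in Mcu-/- and 41.9 ± 1.33 CPM in WT with zymosan. Cdh5 went the other way, at 7.05 ± 0.31 and 1.37 ± 0.32 CPM. The part of these differences in the chemokine levels was not tested.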

How the data were processed

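RNA from 20 libraries of BMDMs was analysed from 1 table of read counts. The authors deposited whole-number counts per gene symbol without normalization, made from paired-end reads trimmed with cutadapt, mapped to mm10 with STAR and counted with HTSeq. Versions, the strand setting and the annotation used for counting are not given in the sources used here. All 4 members were taken by symbol. Counts were fitted in R 4.3.3 with edgeR 4.0.16 (quasi-likelihood test, TMM scaling, filterByExpr, 1 coefficient per group, all 20 libraries), and DESeq2 1.42.0 was an alternative. A Benjamini-Hochberg adjusted p under 0.05 over all 11707 genes made a call. SE values were derived as the absolute log2 fold change over the square root of the edgeR F statistic, since this test returns no standard error. They are approximate, and the SE of a difference of responses need not combine from those of the single responses. Exact two-sided permutation tests used log2 values with a pseudocount of 0.5 CPM. Count ratios used summed reads with exact 95% binomial intervals. The Mcu-/- zymosan columns match their group but no single sample, so they carry no usable replicate number. Depth was 14420402 to 23954552 counts per library, at which 3 counts, taken as the detection floor, are 0.107 to 0.191 CPM. Intervals and floors cover counting error alone.

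Besides the members, the text names Mcu, the 5 genes most correlated with each member, all listed neighbours and receptors, the 2 largest called rises and falls of each other list, and the most abundant markers. Cd68, Ly6g and Cdh5 fall outside this rule and were chosen after their values were seen. C5ar1 and Icam1 are named only to describe their list. The members and lists were chosen with earlier results of these data known. Scripts were tested on simulated data, with recovery judged at higher counts only, a limit set after a first run had missed low-count genes. Alternatives were other size factors, library totals, filters, fits of the compared groups alone, a replicate block, other pseudocounts and lengths, and leaving out each library.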

Additional observations from a re-analysis of the deposited data

Results flagged for a closer look

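In untreated Mcu-/- BMDMs Cxcl1 was at 0.873 CPM in replicate 4, far from the nearest library at 0.292 CPM (Dixon's ratio 0.881), where chance sets a library apart in about 1 in 20 groups. The screen covered 15 groups of values and flagged 3, so a flag by chance alone would not be rare. These Cxcl1 values rest on 6, 6, 8 and 22 reads, for which the rate of 1 in 20 is approximate. Replicate 4 stood apart from replicates 1 to 3 in many other genes. Cxcl5 was at 0.102 CPM in WT zymosan replicate 3 and at 0.107 CPM in BAPTA-AM-loaded WT replicate 1, each from 2 reads where the other libraries of the group had 0 reads. Dixon's ratio is then 1 by construction, whatever the count, so these say nothing beyond the 2 reads.

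The zymosan response differed between the genotypes by an interaction term for Cxcl1, with a log2 difference of 3.11 (1.97 with replicate 4 as the only untreated Mcu-/- library and 3.79 without it), and for Cxcl2, with 0.82, both larger in Mcu-/- BMDMs. The 3 Mcu-/- zymosan libraries and untreated Mcu-/- replicate 4 shared levels of several macrophage and stromal genes that replicates 1 to 3 did not have, and the part of this in the difference was not tested.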

How the results depend on the processing

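The 21 log2 fold changes of Cxcl1, Cxcl2 and Cxcl3 gave 563 values under alternatives, of which 548 kept direction and side of the threshold and 0 changed direction. Scaling by library totals moved the median of all genes from -0.04 to -0.54 for zymosan in WT. With at least 10 counts in every library only Cxcl2 was tested, so 1 member was called where 3 (or 2, for the difference of responses) had been. The biological coefficient of variation of the edgeR fit was 12.4% with all libraries and 3.56% without untreated Mcu-/- replicate 4. The causes of the other changes were not tested.

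BAPTA-AM against none in WT zymosan: leaving out 1 library gave -0.479 to -0.409 for Cxcl1. Genes of the 6 lists called higher (2) became 6 in the compared groups alone, 5 with replicate 4 as the only untreated Mcu-/- library, and 1 to 5 leaving out 1 library. Those called lower (13) became 30, 31, and 9 to 31.

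Mcu-/- against WT untreated: Cxcl1 was 2.29 by DESeq2 (adjusted p = 0.0176), 3.36 with replicate 4 alone (adjusted p = 2.33e-07), and 1.54 to 2.42 leaving out 1 library (called without Mcu-/- replicate 1 or 2). Cxcl2 was 1.52 in the compared groups alone (adjusted p = 0.0979). Cxcl3 was 2.34 with replicate 4 alone (adjusted p = 0.0341). Members called higher (1) became 2 by DESeq2, 0 in the compared groups alone, 3 with replicate 4 alone and 1 to 2 leaving out 1 library. List genes called higher (2) became 1 with the stricter filter, 1 in the compared groups alone, 24 with replicate 4 alone and 1 to 4 leaving out 1 library. List genes called lower (0) became 1 by library totals, 2 by DESeq2, 16 with replicate 4 alone and 0 to 7 leaving out 1 library.

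In other comparisons, list genes called lower became 11 (from 6, zymosan in WT) and 10 (from 6, BAPTA-AM zymosan against untreated) by library totals, and 6 (from 10, zymosan in Mcu-/-) in the compared groups alone. With replicate 4 alone the Cxcl2 difference of responses was 0.736 (adjusted p = 0.0507), leaving 1 member called. List genes with a larger response (13) ran from 10 to 26 leaving out 1 library. At a pseudocount of 2 CPM the log2 ratio of Cxcl2 to Cxcl3 (Mcu-/- against WT, zymosan) was 0.0899 instead of -0.271, and that of Cxcl1 to Cxcl2 (zymosan in Mcu-/-) -0.448 instead of 0.489. Ratios passing ran from 11 to 27 leaving out 1 library, lowest with 2 Mcu-/- zymosan libraries, where the smallest p the exact test can give is larger. By coding length the Cxcl1 share was 4.35% (WT) and 26.5% (Mcu-/-) with zymosan and the Cxcl2 share 94.3% and 72.1%. By exons of all transcripts they were 4.60%, 27.8%, 94.6% and 71.4%.

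Replicate numbers did not pair libraries: deviations of 24 same-numbered pairs correlated from -0.0549 to 0.0614. With the replicate block, fitted on the 17 numbered libraries, Cxcl1 with BAPTA-AM was -0.487 (adjusted p = 0.208). List genes called higher became 1 with BAPTA-AM and 1 in untreated Mcu-/- BMDMs. No paired analysis was possible for Mcu-/- zymosan because its columns carry no usable number.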
